A study of Mus musculus with 12 samples.

Results

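The response of the brain to intracerebral hemorrhage (ICH) was measured by mRNA sequencing in mice whose microglia lacked Fabp4, the fatty acid binding protein 4 that carries long-chain fatty acids inside cells. The comparison used the 6 libraries of the conditional knockout mice out of the 12 libraries of the series: 3 from Fabp4CKO mice with ICH (ICH-Fabp4CKO) and 3 from Fabp4CKO mice with a sham operation (Sham-Fabp4CKO), taken by their group labels. Both groups carried the floxed Fabp4 alleles and a tamoxifen-inducible Cre recombinase under the Tmem119 promoter, which is active in microglia, and both had received tamoxifen before surgery, so that the operation was the labelled difference between them. ICH was produced by injecting collagenase, an enzyme that breaks down vessel walls, into the right striatum, and the sham mice had the same operation without the enzyme. The tissue next to the hematoma was collected at 48 h. The other 6 libraries came from floxed mice without Cre, 3 with ICH and 3 with a sham operation, and were used only where a difference between genotypes was tested. The driver limits the model to cells that express Tmem119, and the study's methods describe it as a knockout in microglia. All values below are CPM, the counts of a gene scaled to a fixed library size, normalised by the trimmed mean of M values and are listed in the order of mouse 1, 2 and 3 of each group. Fold changes are on the log2 scale, ICH minus sham, with their standard error (SE), and a gene was called changed where edgeR's quasi-likelihood test gave a Benjamini-Hochberg adjusted p under 0.05.

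After a hemorrhage, microglia and astrocytes next to the hematoma leave their resting state, blood-derived monocytes and neutrophils enter, and phagocytes clear red cells, heme and iron. Microglia are recognised by genes such as Tmem119 and P2ry12, and in injury or demyelination they take on a second program that includes Apoe, Trem2 and Gpnmb. Interferon signalling, complement and antigen presentation are parts of the same immune response, while proteases and matrix genes take part in the breakdown and repair of the vessel wall. The striatum itself consists mostly of GABAergic projection neurons that carry dopamine receptors.

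Fabp4 was read at 0, 0 and 0 counts in the sham Fabp4CKO libraries and at 5, 3 and 10 counts in the ICH Fabp4CKO libraries. In the floxed mice it gave 2, 1 and 2 counts after sham and 46, 63 and 24 counts after ICH. The counts after ICH in the knockout mice thus lay below all 3 floxed ICH counts, and the gene was too low to be tested in the knockout mice. The 6 knockout libraries held 15650830 to 22406222 counts, and none of the pairs of libraries within a group agreed within counting error. The striatal marker Ppp1r1b reached 421 to 1741 CPM in every library, so each library held striatal transcripts. The labels name no region, and this marker alone does not show that the same region was collected from every mouse.

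The 3 ICH libraries did not differ from the sham libraries to the same extent. On the first principal component of the 6 libraries, which held 89.1% of the variance, the sham mice lay at -89.5, -86.8 and -89.0 and the ICH mice at 109, 23.3 and 133. ICH mouse 2 thus lay between the sham mice and ICH mice 1 and 3. A smaller response and a different piece of tissue cannot be told apart for this mouse, in which some cortical genes were also highest. Over the genes called higher, the median log2 difference from the sham mean was 1.72, 0.93 and 1.98 in the 3 ICH mice, and over the genes called lower it was -1.08, -0.56 and -1.35. Mouse 2 had the smallest change of the 3 in 92.0% of the genes called higher and in 87.5% of those called lower. ICH mouse 1 differed in another way: its library held 1 read of Y-linked genes, against 1369 and 2251 in the other ICH libraries and 1408 to 1598 in the sham libraries, although the labels set no sex difference between the mice. Counts are therefore also given without mouse 2 or without mouse 1.

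**Figure D1:**
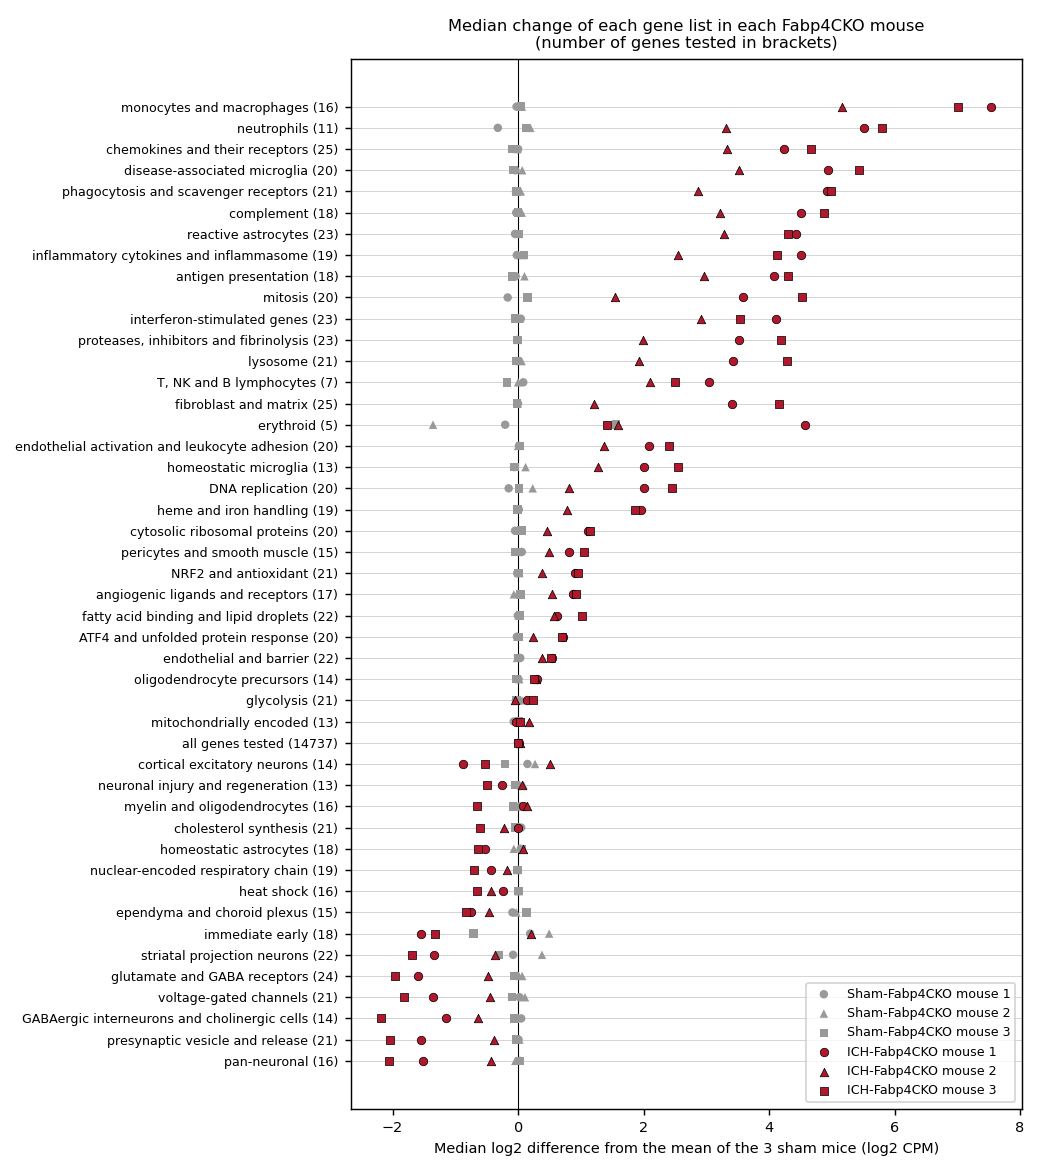
Median log2 difference from the mean of the 3 sham mice (horizontal axis, log2 CPM) for each gene list and each Fabp4CKO mouse, with sham mice in grey and ICH mice in red. ICH mouse 2 (triangles) lay closer to the sham mice than ICH mice 1 and 3 in the immune, matrix, mitosis and neuronal lists, with a median of 5.16 against 7.54 and 7.01 for monocytes and macrophages and of -0.44 against -1.51 and -2.06 for pan-neuronal genes.

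Of 14737 genes tested, 3605 rose after ICH (24.5%) and 1643 fell (11.1%), 35.6% in all. The changes upward were the larger: 1521 genes rose and 141 fell by at least 4-fold, and the median log2 fold change was 1.64 among genes called higher and -0.98 among genes called lower, while the median over all genes was 0.01. The groups did not overlap in 62.1% of all genes, 33.3% with every ICH mouse above every sham mouse and 28.9% with every ICH mouse below. The number of calls depended on single libraries. Without ICH mouse 2, 5202 genes were called higher and 4897 lower, 67.4% of the genes tested in that fit. Without ICH mouse 1, 1435 were called higher (9.62%) and 148 lower (0.992%), 10.6% in all. Without ICH mouse 3 they were 2349 and 692, and leaving out sham mouse 1, 2 or 3 gave 795, 767 or 594 genes higher and 50, 75 or 35 lower. No called gene changed its sign without ICH mouse 1 or without ICH mouse 2. The groups overlapped in 11 genes called higher and in 0 called lower, so a change of sign was hardly possible. Of the 3605 higher calls 3599, and of the 1643 lower calls 1640, were also made without mouse 2. Mouse 2 had the smallest change in most called genes, so calls kept without it say little about their stability.

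**Figure D2:**
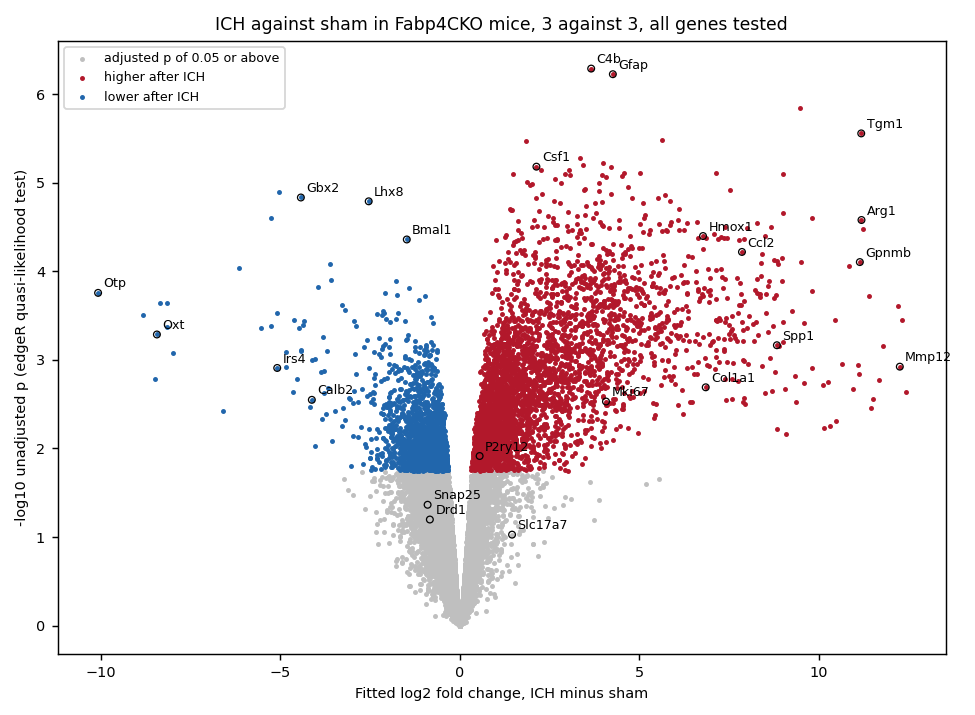
Fitted log2 fold change, ICH minus sham (horizontal axis), against -log10 of the unadjusted p (vertical axis) for the 14737 genes tested in Fabp4CKO mice, with 3605 genes called higher in red and 1643 called lower in blue. Named genes are circled; Gfap and C4b had the smallest p values, while the neuronal genes Snap25 and Drd1 and the cortical gene Slc17a7 were not called.

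Microglial transcripts rose in the mice whose microglia lacked Fabp4, those of the resting state as well as those of the disease-associated state. Of the 13 resting-state markers tested, 11 rose and none fell, against 24.5% and 11.1% of all genes. The median log2 fold change was 2.02. In 11 of them every ICH mouse lay above every sham mouse, against 33.3% of all genes. Tmem119, a surface protein specific to microglia and the gene whose promoter drives Cre, was at 28.4, 33.2 and 26.7 CPM in sham mice and at 119, 69.0 and 171 CPM in ICH mice. Its log2 fold change was 2.02 (SE 0.33, adjusted p = 0.010). P2ry12, the ADP receptor that guides microglial processes to injury, was at 37.9, 43.7 and 38.3 CPM after sham and at 47.9, 67.3 and 60.3 CPM after ICH, a log2 change of 0.55 (SE 0.16, adjusted p = 0.041). The increase of P2ry12 was thus much smaller than that of Tmem119, and in P2ry12 mouse 2 was the highest. Cx3cr1, the fractalkine receptor, rose by 2.68 (SE 0.28) and Csf1r, the receptor for the survival factor of microglia, by 2.44 (SE 0.22) on the log2 scale. Siglech and Slc2a5 were not called. Siglech, a sialic acid receptor, was at 10.04, 11.1 and 9.50 CPM after sham and at 5.94, 22.03 and 7.27 CPM after ICH, and Slc2a5, the fructose transporter, was at 5.71, 7.18 and 6.24 CPM after sham and at 2.71, 6.32 and 1.97 CPM after ICH. In both genes mouse 2 was apart from the other ICH mice, which lay below all sham mice, and without mouse 2 both were called lower.

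All 20 disease-associated microglial genes rose, with a median log2 fold change of 4.92. Gpnmb, a glycoprotein of lipid-laden phagocytes, was at 1.47, 2.23 and 1.61 CPM after sham and at 3652, 586 and 7749 CPM after ICH. Spp1, which encodes osteopontin, went from 19.3, 16.7 and 16.3 CPM to 7646, 433 and 15619 CPM. Every ICH mouse lay far above every sham mouse in both genes, and mouse 2 was more than an order of magnitude below mouse 3. Their log2 fold changes were 11.13 (SE 1.24) and 8.83 (SE 1.43). Cst7, an inhibitor of cathepsins, behaved differently among the ICH mice. It was at 0, 0.223 and 0 CPM after sham and at 44.0, 37.7 and 43.6 CPM after ICH, with mouse 2 close to the others. Apoe, the lipid carrier, reached 11893, 6592 and 21075 CPM from 1549, 1687 and 1676 CPM, and the lipid receptor Trem2 rose by 4.88 on the log2 scale (SE 0.55). Csf1, a growth factor for microglia and macrophages, rose by 2.13 (SE 0.16) and the phagocytic receptor Axl by 2.01 (SE 0.16), both with small differences between the ICH mice. Because the RNA came from whole tissue, more cells of a type and more RNA per cell cannot be told apart, and genes of the disease-associated list are also expressed by macrophages.

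Transcripts of blood-derived myeloid cells rose, many from near 0. Of 16 monocyte and macrophage genes, 15 rose, with a median log2 fold change of 7.82. With the 9 genes at or below 3 counts in every library of 1 group set to their lower bound, it was 7.04. With at least 10 counts required in every library, which drops genes near 0 after sham, 4 were called higher and the median was 5.58. Ccr2, the chemokine receptor of inflammatory monocytes, was at 0.138, 0.0892 and 0 CPM after sham and at 47.4, 12.4 and 29.1 CPM after ICH, at least 204-fold higher. Arg1, the arginase of alternatively activated macrophages, was at 315, 55.9 and 306 CPM after ICH and at least 1533-fold higher than in sham mice. Lyz2, the lysozyme of myeloid cells, rose from 10.2, 10.9 and 8.03 CPM to 4375, 904 and 7908 CPM. In all 3 genes the groups were far apart and mouse 2 was the lowest of the ICH mice. The exception of the list was Cd163, the hemoglobin-haptoglobin receptor of border-associated macrophages, which was at 1.06, 1.16 and 1.33 CPM after sham and at 0.517, 0.796 and 0.656 CPM after ICH. The groups did not overlap in Cd163, but the gene was not called (adjusted p = 0.072). Mrc1, the mannose receptor, which border macrophages and repair macrophages share, rose by 3.88 (SE 0.73).

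Neutrophil genes followed the same order of mice. Of 15 listed genes 11 could be tested, and 8 rose, with a list median of 5.87. With the 4 genes at the floor set to their bound it was 5.19. With at least 10 counts required in every library, 2 were called higher and the median was 3.88. The calgranulin gene S100a9 was at 0.0921, 0.937 and 0.138 CPM after sham and at 50.7, 6.16 and 49.4 CPM after ICH (log2 fold change 6.47, SE 1.16, adjusted p = 0.012). S100a8, its partner, was at 20.7, 3.03 and 19.7 CPM after ICH. The granule genes Ngp and Ltf were not called. They stood at 78.3 and 34.9 CPM in ICH mouse 3, while the other ICH mice reached at most 3.36 CPM of Ngp and 1.55 CPM of Ltf. Retnlg, a marker of mature neutrophils, was 5.81, 0.531 and 4.32 CPM after ICH, at least 24.2-fold higher than in sham mice. Over the fits that left out 1 library, the number of neutrophil genes called higher ran from 1 to 10. Lymphocyte genes stayed low: only 7 of 16 could be tested and 5 rose, with a median of 3.33. With the 3 genes at the floor set to their bound it was 2.52. With at least 10 counts required in every library, 1 was called higher and the median was 0.49. Cd8a, the co-receptor of cytotoxic T cells, was at 0 in all sham libraries and at 0.840, 1.38 and 1.47 CPM after ICH, at least 8.48-fold higher, and here mouse 2 was not the lowest. Cd4 was not called, at 38.6, 57.4 and 28.5 CPM after sham and 23.5, 33.7 and 21.5 CPM after ICH.

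**Figure D3:**
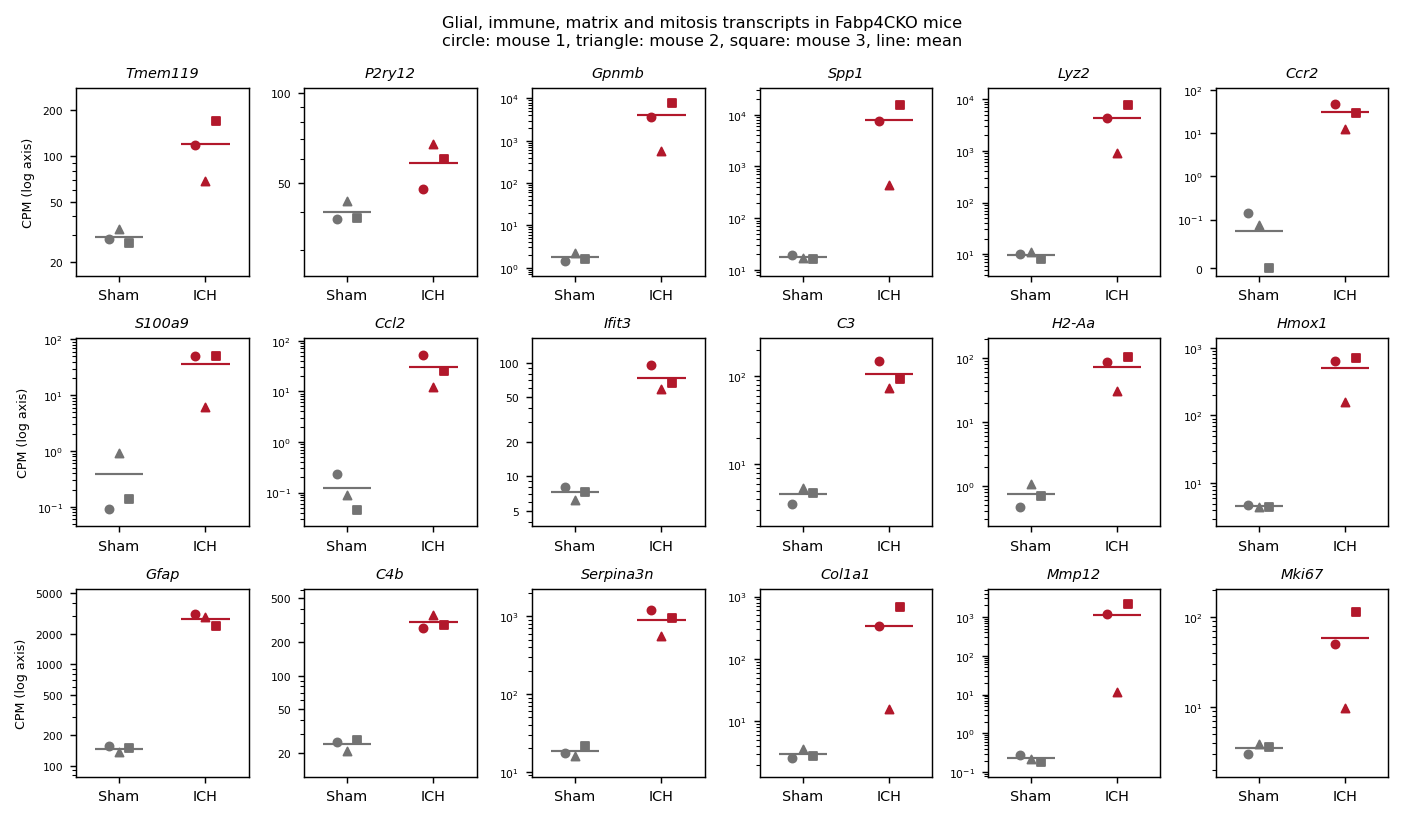
CPM on a log axis (linear below 0.1 in the panel with a value of 0) of 18 glial, immune, matrix and mitosis transcripts in the 3 sham and the 3 ICH Fabp4CKO mice; each symbol is a mouse and each line a group mean. Every ICH mouse lay above every sham mouse in each panel, mouse 2 (triangle) lay lowest among the ICH mice for Spp1, Lyz2, S100a9, Col1a1, Mmp12 and Mki67, and it was the highest for P2ry12 and C4b.

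Chemokines, the signals that recruit leukocytes, rose with these cells. Of 25 chemokine and receptor genes tested 21 rose, with a median log2 fold change of 5.34, or 4.09 with the 7 genes at the floor set to their bound. Ccl2, the main attractant of monocytes, was at 0.230, 0.0892 and 0.0459 CPM after sham and at 52.1, 11.9 and 24.7 CPM after ICH (log2 fold change 7.85, SE 0.83, adjusted p = 0.0054). Ccl12, which acts on the same receptor, rose by 7.12 (SE 0.54), and Ccl3, an attractant of monocytes and neutrophils, by 5.73 (SE 0.55). Cxcl1 and Cxcl2, the attractants of neutrophils, were at 9.43, 1.33 and 5.13 CPM and at 20.7, 2.39 and 3.99 CPM after ICH, at least 36.4-fold and 63.0-fold higher than in sham mice. In both, mouse 1 was the highest. Cxcl9 and Cxcl10, the interferon-induced attractants of T cells, rose too; Cxcl9 was at 0 after sham and at 1.61, 2.23 and 1.75 CPM after ICH, and mouse 2 had the highest value. The 4 chemokine genes that were not called were Cxcl12, Cxcl14, Cx3cl1 and Ackr1. Cx3cl1, the neuronal ligand of Cx3cr1, was at 702, 921 and 619 CPM after sham and at 252, 540 and 178 CPM after ICH (adjusted p = 0.0675).

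Inflammatory cytokines rose in 18 of 19 genes tested, with a median log2 fold change of 3.99. With at least 10 counts required in every library, 10 were called higher and the median was 3.83. Il1b was at 0, 0.134 and 0.0917 CPM after sham and at 45.7, 4.83 and 7.37 CPM after ICH, at least 135-fold higher. Its natural antagonist Il1rn was at 77.6, 10.6 and 25.2 CPM after ICH, and Il6 was at 7.81, 1.22 and 1.26 CPM from 0 in all sham mice. All 3 were highest in mouse 1, by several fold. Tnf was at least 42.0-fold higher, Tgfb1, the immune-restraining growth factor, rose by 3.99 (SE 0.57) and the inflammasome sensor Nlrp3 by 3.99 (SE 0.61). Il33, an alarmin released by damaged glia, rose from 85.3, 78.0 and 80.2 CPM to 403, 236 and 229 CPM. Il18 was the exception, at 14.3, 15.3 and 13.99 CPM after sham and at 14.6, 18.1 and 14.8 CPM after ICH (log2 fold change 0.12, SE 0.14, adjusted p = 0.51). Over the fits that left out 1 library the number called ran from 4 to 19, the last without ICH mouse 2, where a further member could be tested.

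The interferon-stimulated genes, which cells switch on through interferon receptors and STAT factors, depended little on single libraries. All 23 tested rose, with a median log2 fold change of 3.64, and over the fits that left out 1 library 22 or 23 were called. Ifit3, an antiviral protein, was at 8.11, 6.24 and 7.29 CPM after sham and at 95.2, 58.2 and 66.0 CPM after ICH (log2 fold change 3.34, SE 0.24, adjusted p = 0.0048). Irf7, the factor that amplifies interferon production, was at 3.59, 3.26 and 2.80 CPM after sham and at 79.1, 33.5 and 41.5 CPM after ICH. Stat2, a signal transducer of the interferon receptors, rose by 1.62 (SE 0.20). Every ICH mouse lay above every sham mouse for all 23, against 33.3% of all genes. Mouse 2 lay near mouse 3 for Ifit3 and Irf7. The promoters of these genes were searched in the RefSeq sequences of build GRCm38.p6, from 250 bases before to 50 after the start, for the interferon-stimulated response element, a pair of GAAA blocks with 2 bases of any kind between them, on either strand. Of the 17 list genes with a promoter sequence 12 held it (70.6%), against 3.99% of 27025 genes. The promoters of the 3 called genes with the smallest p that held the element are shown because they carry the sequence that interferon-activated factors read, with the element in capitals.
Ifit3, chr19:34583279-34583578, plus strand: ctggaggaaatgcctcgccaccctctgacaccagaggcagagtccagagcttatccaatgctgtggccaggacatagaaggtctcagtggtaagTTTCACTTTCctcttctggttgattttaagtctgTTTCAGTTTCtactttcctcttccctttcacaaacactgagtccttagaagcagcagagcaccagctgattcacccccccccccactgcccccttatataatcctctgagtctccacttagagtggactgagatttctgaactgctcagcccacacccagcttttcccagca
Gbp2, chr3:142620413-142620712, plus strand: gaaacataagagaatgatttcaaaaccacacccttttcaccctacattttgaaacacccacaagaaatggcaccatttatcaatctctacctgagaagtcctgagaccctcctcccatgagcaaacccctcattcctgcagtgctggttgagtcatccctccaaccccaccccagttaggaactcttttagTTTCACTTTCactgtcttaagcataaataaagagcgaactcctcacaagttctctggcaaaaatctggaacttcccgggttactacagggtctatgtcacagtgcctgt
Trim30a, chr7:104465144-104465443, minus strand: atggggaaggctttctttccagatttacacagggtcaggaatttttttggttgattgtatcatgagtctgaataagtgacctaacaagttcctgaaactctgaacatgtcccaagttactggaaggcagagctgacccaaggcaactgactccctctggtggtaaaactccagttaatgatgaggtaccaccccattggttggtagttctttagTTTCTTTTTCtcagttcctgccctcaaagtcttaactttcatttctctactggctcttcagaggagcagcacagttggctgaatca
Gbp2, a GTPase induced by interferon gamma, went from 5.02, 4.82 and 6.01 CPM to 52.8, 32.3 and 45.4 CPM, and Trim30a, a ubiquitin ligase of the antiviral response, from 1.98, 2.27 and 2.02 CPM to 53.0, 22.9 and 59.8 CPM. A match of these letters is a description of the promoter and does not show that a factor was bound there.

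Antigen presentation and complement genes also rose. All 18 antigen presentation genes rose, with a median of 3.91. H2-K1, a class I heavy chain, went from 27.9, 29.2 and 25.2 CPM to 410, 223 and 489 CPM, and B2m, its light chain, rose by 3.69 (SE 0.38). The class II chain H2-Aa went from 0.461, 1.07 and 0.688 CPM to 86.2, 30.7 and 103 CPM, and its chaperone Cd74 rose by 5.86 (SE 0.50). Class I and class II genes thus rose in every ICH mouse. Class I genes share sequence with their neighbours, so reads of H2-K1, H2-D1 and H2-Q4 may be shared between them. Of 18 complement genes 15 rose. C4b, a component of the classical pathway made by astrocytes, had the smallest p of all genes with Gfap: 25.2, 21.1 and 26.0 CPM after sham and 270, 354 and 287 CPM after ICH (log2 fold change 3.66, SE 0.18, adjusted p = 0.0044). Mouse 2 was the highest of the 3. C1qa, which starts the classical pathway, went from 53.6, 57.4 and 54.5 CPM to 1316, 552 and 1938 CPM, and C3, the central component, from 3.55, 5.40 and 4.68 CPM to 149, 72.5 and 92.1 CPM. The receptors C3ar1 and C5ar1 rose by 6.95 (SE 0.87) and 7.12 (SE 1.03). The membrane regulators Cd55 and Cd59a were not called: Cd55 was at 2.99, 4.82 and 4.82 CPM after sham and at 3.23, 3.50 and 2.51 CPM after ICH. C2 was not called either.

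Of 21 listed genes for phagocytosis 19 rose, and of 21 lysosomal genes 20. Over the fits that left out 1 library 9 to 21 and 5 to 20 of them were called higher. In the wider pathways of the deposited annotation the shares were lower, with 77 of 130 phagosome genes higher and 9 lower and 70 of 124 lysosome genes higher and 7 lower. Cd68, the lysosomal glycoprotein of phagocytes, went from 9.77, 12.6 and 9.22 CPM to 1077, 229 and 1955 CPM. Msr1, a scavenger receptor, went from 0.138, 0.0446 and 0.0459 CPM to 244, 24.7 and 398 CPM, at least 1489-fold higher, and Cd36, the scavenger receptor that takes up red cells and fatty acids, from 1.29, 0.669 and 1.28 CPM to 285, 8.76 and 871 CPM. Mouse 2 was far below mouse 3 in Cd36, a wider gap than in Cd68. Without ICH mouse 1, Cd36 was no longer called. The cathepsins rose to high levels: Ctsd, an aspartic protease, reached 16414, 5315 and 26028 CPM from 449, 479 and 457 CPM. Mertk, the receptor for dying cells, rose by 2.12 (SE 0.37). Mfge8, a bridging protein that binds phosphatidylserine, and the lipoprotein receptor Scarb1 were not called, at adjusted p = 0.063 and 0.057. The lysosomal exception was Atp6v1a, a subunit of the proton pump, at 371, 337 and 387 CPM after sham and 305, 334 and 434 CPM after ICH, whereas Atp6v0d2, the subunit of macrophages and osteoclasts, was at least 340-fold higher.

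Heme and iron genes rose in 16 of 19 tested, with a median of 1.77. Hmox1, the enzyme that opens heme, went from 4.79, 4.50 and 4.54 CPM to 644, 157 and 710 CPM (log2 fold change 6.77, SE 0.67, adjusted p = 0.0048). Ftl1, the ferritin light chain, went from 209, 225 and 202 CPM to 3420, 928 and 5106 CPM, and Fth1, the heavy chain, from 2060, 2253 and 2232 CPM to 6106, 3482 and 5904 CPM. The heme-degrading and iron-storing steps thus rose in every mouse. Slc40a1, the iron exporter ferroportin, rose by 2.61 (SE 0.49), Cp, the ferroxidase ceruloplasmin, by 2.96 (SE 0.49) and Trf, transferrin, by 1.62 (SE 0.26). The constitutive heme oxygenase Hmox2 and the transferrin receptor Tfrc were not called, with log2 fold changes of 0.12 (SE 0.16) and 0.06 (SE 0.16). Globin reads were 844, 375 and 2659 counts in the sham libraries and 17083, 2663 and 2181 counts in the ICH libraries. Globin counts of ICH mice 2 and 3 were thus close to the highest sham count and those of mouse 1 far above it, while Hmox1 was as high in mouse 3 as in mouse 1. The part of residual blood in these results was not tested. No globin gene was called, and reads of the near-identical copies of each globin cannot be told apart. Without ICH mouse 1, 7 heme and iron genes were called, and without any 1 of the sham mice 2 were.

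Antioxidant genes were divided. Of the 21 genes of the NRF2 and antioxidant list 11 rose and 1 fell, against 24.5% and 11.1% of all genes. Prdx6, a peroxidase abundant in astrocytes, went from 168, 199 and 172 CPM to 502, 613 and 527 CPM, again with mouse 2 highest, and Mt2, a metallothionein, from 70.8, 67.6 and 88.9 CPM to 294, 197 and 269 CPM. Sod2, the mitochondrial superoxide dismutase, fell from 234, 225 and 231 CPM to 144, 171 and 106 CPM. The standard NRF2 targets Nqo1, Gclc, Gclm and Srxn1 were not called, with log2 fold changes of 0.15, -0.23, 0.19 and 0.25. The core antioxidant response element TGACNNNGC stood in the promoters of 7 of 18 list genes (38.9%) and of 3781 of 27025 genes with a promoter sequence, and in 3 of the 9 promoters of list genes that rose.

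Among the relatives of Fabp4, Fabp5, the epidermal form, was at 58.5, 56.4 and 52.5 CPM after sham and at 331, 117 and 592 CPM after ICH (log2 fold change 2.64, SE 0.56, adjusted p = 0.019). Every ICH mouse was above every sham mouse, but the call was lost without ICH mouse 1. Fabp3 and Fabp7, the heart and brain forms, were not called. Fabp7 was at 19.0, 15.2 and 23.5 CPM after sham and at 21.0, 33.0 and 34.0 CPM after ICH, and Fabp3 at 26.1, 26.6 and 27.2 CPM and at 14.5, 26.6 and 16.0 CPM. Of the 22 genes of fatty acid binding and lipid droplets 10 rose and none fell, against 24.5% and 11.1% of all genes, with a median of 0.66. Plin2, the coat protein of lipid droplets, went from 8.61, 7.36 and 8.44 CPM to 693, 74.6 and 1661 CPM, and the cholesterol exporter Abca1 from 45.6, 45.8 and 50.7 CPM to 878, 308 and 1741 CPM. Hilpda, an inhibitor of lipolysis, rose by 3.14 (SE 0.62) and Soat1, which esterifies cholesterol, by 2.48 (SE 0.47). These storage and export genes thus rose, whereas the last enzymes of triglyceride synthesis, Dgat1 and Dgat2, were not called. Over the fits that left out 1 library 1 to 12 of the 22 were called higher, and without ICH mouse 1 it was 3. Cholesterol synthesis showed little: 1 of 21 genes was called, Tm7sf2, which fell by 0.81 (SE 0.24), and the list median was -0.28. Without ICH mouse 2, 7 of the 21 were called lower, a share close to the 32.7% of all genes in that fit.

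Reactive astrocyte genes rose in 22 of 23 tested, with a median of 4.26, and 16 to 23 were called over the fits that left out 1 library. Gfap, the intermediate filament of astrocytes, went from 155, 136 and 148 CPM to 3149, 2905 and 2348 CPM (log2 fold change 4.26, SE 0.21, adjusted p = 0.0044). Serpina3n, a protease inhibitor, went from 17.6, 16.0 and 21.5 CPM to 1214, 556 and 939 CPM, and Vim, vimentin, from 35.9, 42.4 and 37.4 CPM to 1191, 565 and 1444 CPM. Gfap was as high in mouse 2 as in the other ICH mice, unlike most of the immune genes above. Tgm1, a transglutaminase, went from 0, 0.0446 and 0.138 CPM to 235, 92.4 and 137 CPM, and Slc14a1, a urea transporter of astrocytes, from 16.6, 15.6 and 16.1 CPM to 63.1, 52.3 and 57.6 CPM. Hspb1, a small heat shock protein, was the gene not called, at 70.5 CPM in mouse 1 and 19.9 and 23.5 CPM in mice 2 and 3 against 15.1 to 17.4 CPM after sham. With all ICH mice, homeostatic astrocyte genes did not move as a group: of 18 tested, Aqp4, Aldh1l1 and Sox9 rose and Slc6a11 fell. The median difference from the sham mean was -0.53, 0.08 and -0.64 in the 3 ICH mice. Without mouse 2, 9 of the 18 were called lower and 3 higher, beside 32.7% and 34.7% of all genes, and the median was -0.56. The water channel Aqp4 went from 131, 117 and 124 CPM to 496, 383 and 354 CPM, and Slc6a11, a GABA transporter, from 535, 418 and 567 CPM to 90.5, 211 and 58.2 CPM. The glutamate transporter Slc1a2 was at 1685, 1762 and 1605 CPM after sham and at 1165, 2705 and 1776 CPM after ICH and was not called.

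Oligodendrocyte genes moved little in these mice. Of 16 myelin genes only Mal, a myelin proteolipid, was called, and it fell by 0.99 (SE 0.27). Mbp, the myelin basic protein, was at 6046, 6458 and 5804 CPM after sham and at 6310, 6697 and 4100 CPM after ICH, with only mouse 3 below the sham range. Of 14 precursor genes 4 rose, a share close to the 24.5% of all genes. Enpp6, a marker of newly formed oligodendrocytes, went from 14.9, 14.4 and 13.4 CPM to 50.6, 40.3 and 36.4 CPM (log2 fold change 1.57, SE 0.16, adjusted p = 0.0049), and Bcas1, expressed at the same stage, rose by 0.80 (SE 0.18). Cspg4 and Vcan, proteoglycans of precursors that other cells of the vessel wall also express, rose too. Pdgfra, the growth factor receptor of precursors, was not called, with a log2 fold change of 0.19 (SE 0.16).

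In the vessel wall, genes of activation rose and genes of the barrier were divided. The counts below stand beside 24.5% of all genes called higher and 11.1% called lower. Of 20 genes of endothelial activation and leukocyte adhesion 15 rose and 1 fell. Icam1, a ligand of leukocyte integrins, went from 2.76, 1.83 and 2.02 CPM to 46.0, 21.4 and 50.4 CPM, and Vcam1 from 34.4, 33.6 and 29.9 CPM to 93.7, 87.2 and 93.8 CPM. Selp and Sele, the selectins on which leukocytes roll, were at 0 in every sham library and at 26.4, 5.52 and 9.01 CPM and at 6.26, 0.849 and 1.58 CPM after ICH, at least 94.7-fold and 20.2-fold higher. These 4 adhesion genes were above every sham mouse in every ICH mouse, with mouse 2 close to the others in Vcam1. Cd99l2, which helps leukocytes leave the vessel, fell by 0.85 (SE 0.15), a call lost without ICH mouse 1. Of 22 endothelial and barrier genes 10 rose and none fell, with a median of 0.45. Pecam1, a junction molecule, went from 27.2, 26.6 and 30.1 CPM to 97.8, 51.8 and 71.1 CPM, and Slc2a1, the glucose transporter of the barrier, from 107, 120 and 114 CPM to 221, 172 and 191 CPM. Cldn5, the claudin that seals the barrier, was at 30.7, 28.01 and 24.6 CPM after sham and at 32.1, 27.2 and 29.2 CPM after ICH. The groups overlapped in Cldn5, and its log2 fold change was 0.09 (SE 0.14, adjusted p = 0.61). Ocln, another junction protein, the lipid transporter Mfsd2a and the VEGF receptor Flt1 were not called either, at -0.18 (SE 0.18), 0.04 (SE 0.16) and 0.01 (SE 0.12). Of 15 pericyte and smooth muscle genes 9 rose, among them Pdgfrb by 1.40 (SE 0.35) and Rgs5 by 1.13 (SE 0.23). Anpep, which pericytes and myeloid cells share, rose by 6.30 (SE 1.04), and the contractile gene Myh11 was not called. Vegfa was at 47.9, 47.7 and 42.1 CPM after sham and at 52.9, 34.9 and 39.6 CPM after ICH, and 8 of 17 angiogenic genes rose, with Angpt2, the vessel-destabilising ligand, at 3.81 (SE 0.68). Leaving out 1 library gave 0 to 13 barrier genes and 1 to 11 pericyte genes called higher.

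Matrix and protease genes differed widely between the ICH mice. Of 25 fibroblast and matrix genes 22 rose, with a median of 3.26. Col1a1, a chain of fibrillar collagen, went from 2.53, 3.61 and 2.71 CPM to 333, 15.9 and 671 CPM, and Col3a1 from 1.47, 2.59 and 1.65 CPM to 374, 16.0 and 838 CPM. Fn1, fibronectin, went from 48.6, 50.2 and 53.3 CPM to 1661, 299 and 2253 CPM. The basement membrane collagen Col4a1 rose by 3.42 (SE 0.74), and 7 of the 25 were called without ICH mouse 1. Of 23 proteases and inhibitors tested 17 rose and 1 fell. Mmp12, the elastase of macrophages, was at 0.276, 0.223 and 0.183 CPM after sham and at 1180, 11.998 and 2219 CPM after ICH. Mmp13, a collagenase, was at 95.1, 1.65 and 112 CPM after ICH, and Mmp9, the gelatinase of neutrophils, went from 0.737, 1.03 and 1.33 CPM to 36.7, 3.61 and 23.7 CPM. Mouse 2 was the lowest of the ICH mice by far in these 3 proteases. Timp1, an inhibitor of these enzymes, was at 76.0, 25.3 and 47.4 CPM after ICH, and Plau, the urokinase, rose by 6.29 (SE 0.97). Timp4, an inhibitor of astrocytes, fell by 0.63 (SE 0.18), and Timp3 was not called.

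Listed genes of cell division rose: all 20 mitosis genes and 18 of 20 DNA replication genes were called higher, with medians of 3.73 and 1.91. The wider cell cycle pathway of the deposited annotation had 53 of 119 genes higher and 3 lower, with a median of 0.37. Without ICH mouse 1, 16 of the 119 were called higher. Mki67, a marker of cycling cells, went from 2.99, 3.88 and 3.53 CPM to 49.9, 9.77 and 115 CPM (log2 fold change 4.07, SE 0.87, adjusted p = 0.019). Cdk1, the mitotic kinase, went from 0.507, 0.892 and 0.826 CPM to 24.2, 5.47 and 36.8 CPM, and Ccnb2, a cyclin that binds it, from 0.415, 0.312 and 0.688 CPM to 13.2, 2.92 and 20.8 CPM. In all 3 genes mouse 3 was the highest and mouse 2 the lowest of the ICH mice, still above every sham mouse. Without ICH mouse 1, 6 mitosis genes and 3 replication genes were called, and without any 1 of the sham mice 0 mitosis genes and 1 to 3 replication genes were. The cell cycle genes homology region TTTGAA, searched on either strand, stood in 11 of 16 mitosis promoters (68.8%) and in 20.2% of all promoters, and the CCAAT box in 14 of 16 (87.5%) and in 41.1%. The pair of mitosis promoters with the smallest p that held both motifs is shown, with both in capitals, because these letters mark the usual layout of genes that peak in mitosis.
Cdk1, chr10:69352863-69353162, minus strand: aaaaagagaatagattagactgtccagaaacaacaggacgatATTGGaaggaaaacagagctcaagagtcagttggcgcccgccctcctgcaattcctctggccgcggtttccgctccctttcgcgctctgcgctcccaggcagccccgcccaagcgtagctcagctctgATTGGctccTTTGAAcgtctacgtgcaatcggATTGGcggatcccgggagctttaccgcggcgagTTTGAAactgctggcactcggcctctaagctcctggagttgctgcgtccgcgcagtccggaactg
Ccnb2, chr9:70421505-70421804, minus strand: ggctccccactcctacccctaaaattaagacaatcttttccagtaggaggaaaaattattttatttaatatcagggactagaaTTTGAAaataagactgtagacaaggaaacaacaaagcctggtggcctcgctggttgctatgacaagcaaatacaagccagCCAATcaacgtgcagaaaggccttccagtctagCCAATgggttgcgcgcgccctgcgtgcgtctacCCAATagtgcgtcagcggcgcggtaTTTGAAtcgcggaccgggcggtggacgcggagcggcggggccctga
Growth-related genes rose beside them: 19 of 20 cytosolic ribosomal protein genes were called higher, with a median of 0.93, and Rplp0 went from 199, 213 and 208 CPM to 826, 406 and 863 CPM. Without ICH mouse 1, 4 of the ribosomal protein genes were called, and without any 1 of the sham mice 0 were.

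Neuronal genes were lower in ICH mice, but few passed edgeR's test with all 6 mice. Of 16 pan-neuronal genes 4 fell, Nefm, Tubb3, Elavl2 and Uchl1, and all 16 were lower in every ICH mouse than in every sham mouse, as were 28.9% of all genes. The list median was -1.21. DESeq2 on the same 6 libraries called all 16 lower, beside 3541 of 14737 genes. Snap25, a synaptic fusion protein, was at 1164, 1082 and 1157 CPM after sham and at 503, 952 and 371 CPM after ICH (log2 fold change -0.90, SE 0.36, adjusted p = 0.086). Rbfox3, which encodes the neuronal nuclear antigen NeuN, was at 173, 213 and 161 CPM after sham and at 59.0, 142 and 48.2 CPM after ICH (adjusted p = 0.075). Mouse 2 lay just below the sham range in both genes and mice 1 and 3 far below it. Without mouse 2 all 16 were called lower, beside 32.7% of all genes, and without mouse 1 none was, beside 0.992% of all genes. The neurofilament Nefm fell by 1.72 on the log2 scale (SE 0.31, adjusted p = 0.013), from 254, 222 and 220 CPM to 69.6, 99.5 and 41.8 CPM.

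Striatal projection neurons showed the same pattern. Of 22 genes 4 fell, among them Rgs9, Pde10a and Foxp1, with a list median of -1.07, and without mouse 2 all 22 did. Drd1, the dopamine receptor of the direct pathway, was at 143, 194 and 118 CPM after sham and at 71.9, 131 and 52.2 CPM after ICH. Drd2, that of the indirect pathway, was at 189, 275 and 144 CPM after sham and at 79.0, 145 and 63.0 CPM after ICH. In both receptors mouse 2 lay within the sham range. Their log2 fold changes were -0.84 (SE 0.37) and -1.09 (SE 0.38), with adjusted p of 0.11 and 0.065, and a difference between the receptors was not tested. Of 24 glutamate and GABA receptor genes 8 fell, of 21 presynaptic genes 2 and of 21 voltage-gated channel genes 9, and none rose, against 11.1% of all genes called lower. Grik1, a kainate receptor, fell by 2.14 (SE 0.47) and Gabrb2, a GABA receptor subunit, by 1.72 (SE 0.41). Grin1, the obligatory NMDA receptor subunit, was not called, at 436, 519 and 397 CPM after sham and 131, 312 and 92.8 CPM after ICH. Without mouse 2 all genes of these 3 lists were called lower, and without mouse 1 none of them and none of the 22 striatal genes was. DESeq2 on all 6 libraries called 17 of the 22 striatal and 20 of the 24 receptor genes lower. It also called 17 of the 21 presynaptic and 17 of the 21 channel genes lower, so these counts depended on the test used.

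Of 14 interneuron and cholinergic genes 5 fell, against 11.1% of all genes, with a median of -1.18. DESeq2 called 9 of the 14 lower. Lhx6, a factor of cortical and striatal interneurons, went from 50.0, 42.3 and 39.7 CPM to 6.20, 17.0 and 7.27 CPM, a fall by 2.11 on the log2 scale (SE 0.40, adjusted p = 0.014). Chat, the enzyme that makes acetylcholine, went from 34.8, 30.4 and 29.7 CPM to 14.1, 13.4 and 7.37 CPM, and the vesicular and choline transporters Slc18a3 and Slc5a7 fell by 1.94 (SE 0.43) and 1.25 (SE 0.24). Mouse 2 was as low as mouse 1 in Chat, unlike the projection neuron genes. Pvalb and Npy, markers of other interneurons, were not called. With all ICH mice, cortical genes did not fall as a group: 1 of 14 was called, Lamp5, and the median was -0.03. Mouse 2 stood apart here, with a median difference from the sham mean of -0.88, 0.50 and -0.53 in the 3 ICH mice. Without mouse 2, 7 of the 14 were called lower, beside 32.7% of all genes, and the median was -0.59. Slc17a7, the vesicular glutamate transporter of cortical neurons, was at 81.5, 78.5 and 35.8 CPM after sham and at 68.1, 385 and 82.6 CPM after ICH. Mouse 2 was thus far above all other mice in this cortical gene, and Neurod2 and Tbr1, both cortical transcription factors, were highest in the same mouse, at 16.8 and 42.2 CPM.

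Large losses were seen in genes that mark regions outside the striatum. Otp, a factor of hypothalamic neurons, was at 5.99, 4.55 and 9.86 CPM after sham and at 0 in every ICH library, at least 42.0-fold lower. Oxt, the hypothalamic hormone oxytocin, was at 26.0, 3.48 and 36.6 CPM after sham and at most 0.129 CPM after ICH, and Avp, vasopressin, was at 25.2, 0.714 and 20.5 CPM after sham and at most 0.258 CPM after ICH. Irs4, an adaptor of the hypothalamus, went from 37.4, 28.4 and 45.5 CPM to 0.258, 2.76 and 0.164 CPM. In these genes every ICH mouse lay below every sham mouse, and sham mouse 2 was the lowest sham mouse. Gbx2, a factor of the thalamus, fell by 4.43 (SE 0.37), Calb2, calretinin, from 107, 104 and 143 CPM to 3.87, 15.2 and 1.15 CPM, and Lhx8, a factor of cholinergic neurons of the basal forebrain, from 16.9, 14.4 and 17.9 CPM to 2.196, 3.40 and 2.84 CPM. The operation and the exact region collected cannot be told apart for these genes. Of 15 genes of ependyma and choroid plexus 6 fell and 1 rose, against 11.1% and 24.5% of all genes. Hydin, a protein of motile cilia, fell from 10.04, 11.1 and 11.6 CPM to 3.49, 4.57 and 4.15 CPM. Foxj1, the factor of ciliated cells, was not called, at 24.7, 32.2 and 32.9 CPM after sham and 36.4, 27.7 and 25.8 CPM after ICH.

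**Figure D4:**
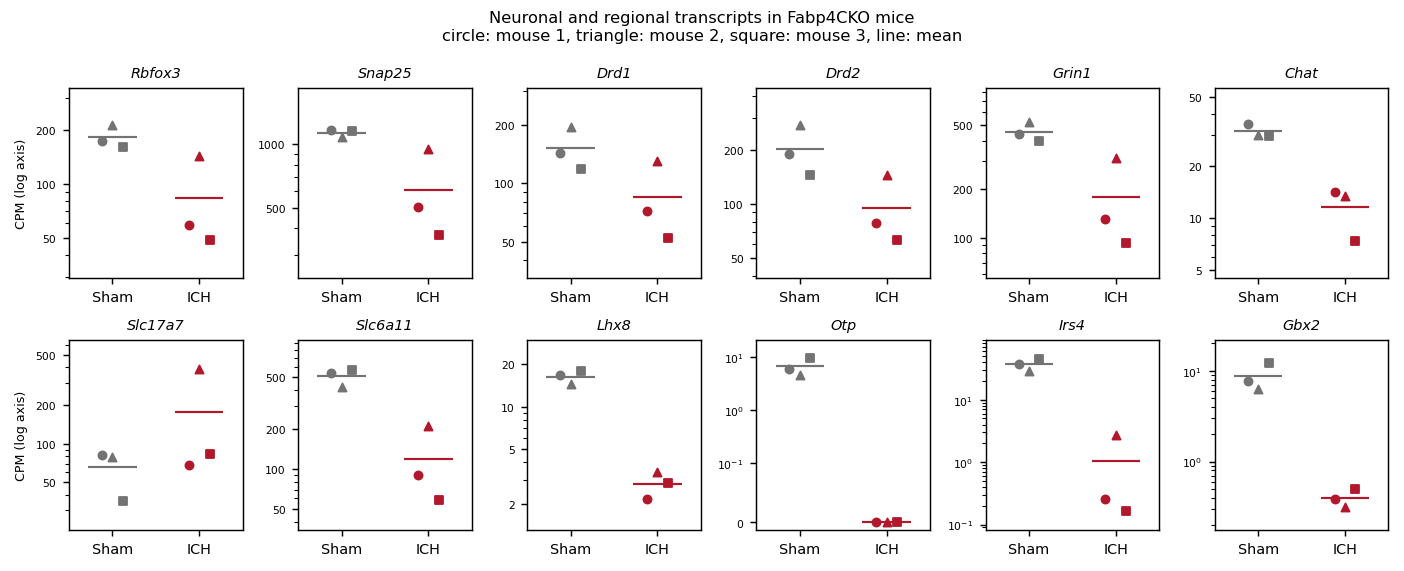
CPM on a log axis (linear below 0.1 for Otp) of 12 neuronal and regional transcripts in the 3 sham and the 3 ICH Fabp4CKO mice; each symbol is a mouse and each line a group mean. ICH mouse 2 (triangle) lay close to the sham mice for Rbfox3, Snap25 and Drd1, was highest for Slc17a7 at 385 CPM, and was as low as the other ICH mice for Lhx8, Otp and Gbx2.

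Stress and activity genes gave a mixed picture. Beside the counts below, 24.5% of all genes tested were called higher and 11.1% lower. Of 16 heat shock genes 6 fell and 1 rose. Hsph1, a chaperone of the cytosol, fell from 429, 443 and 464 CPM to 191, 236 and 132 CPM, and Chordc1, a partner of HSP90, by 0.71 (SE 0.13), whereas Bag3, a co-chaperone of selective autophagy, rose by 1.53 (SE 0.22). The inducible Hspa1a was not called, with a log2 fold change of 0.11 (SE 0.24). The heat shock element, an array of alternating GAA and TTC blocks with 2 free bases between neighbours, stood in 4 of 11 promoters of the list (36.4%) and in 0.662% of all promoters, and those of Hsph1 and Chordc1 were among the 4. Of 20 genes of ATF4 and the unfolded protein response 9 rose and none fell, and the ER chaperone Hspa5 was at 432, 425 and 434 CPM after sham and at 699, 323 and 823 CPM after ICH, with mouse 2 below the sham range. Among 18 immediate early genes Jun, Fosl1 and Ier2 rose and Homer1 fell, with a list median of -0.68. Without ICH mouse 2, 10 of the 18 were called lower and 3 higher, beside 32.7% and 34.7% of all genes. The list median was then -1.55. Fos was at 27.8, 34.6 and 6.15 CPM after sham, so that sham mouse 3 stood apart, and at 53.2, 32.8 and 32.6 CPM after ICH. Atf3, a marker of injured cells, rose from 0.737, 0.847 and 0.780 CPM to 74.9, 22.2 and 113 CPM. Energy genes moved less. Of 19 nuclear-encoded respiratory chain genes 5 fell, with a median of -0.41. In all 19 every ICH mouse lay below every sham mouse, as in 28.9% of all genes. Without ICH mouse 2, 14 of the 19 were called lower, beside 32.7% of all genes. Of 21 glycolysis genes 3 rose, a share below that of all genes: Hk2 by 3.90 (SE 0.43), the lactate exporter Slc16a3 by 3.98 (SE 0.63) and Slc2a1. Of 13 mitochondrially encoded genes only mt-Atp8 was called, higher by 0.92 (SE 0.15), and mitochondrial reads were 7.90 to 9.50% of counts in all 6 libraries.

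Pathways of the deposited annotation followed the same division. Cytokine-cytokine receptor interaction had 105 of 161 tested genes higher and 5 lower, complement and coagulation cascades 33 of 49 and 1, and cell adhesion molecules 63 of 115 and 9. DNA replication had 23 of 35 higher and none lower. Without ICH mouse 1, the cytokine, complement and adhesion pathways had 77, 30 and 47 genes called higher. DNA replication then had 2, beside 9.62% of all genes, and leaving out 1 library gave as few as 0. Synaptic pathways had more genes lower than higher: glutamatergic synapse 23 lower and 17 higher of 102, GABAergic synapse 21 and 10 of 79, and dopaminergic synapse 27 and 17 of 119. Over all genes tested the shares were 24.5% higher and 11.1% lower. Without ICH mouse 1 the order turned for the glutamatergic synapse, with 6 higher and 3 lower, and for the dopaminergic synapse, with 4 higher and 3 lower, while the GABAergic synapse had 1 higher and 3 lower.

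Whether the response of the knockout mice differed from that of the floxed mice was tested as an interaction over all 12 libraries. Of 15089 genes, 3 were called (0.0199%): Ttr and Folr1, transcripts of the choroid plexus, with a higher value in knockout mice (0.0133%), and Tbx1, a transcription factor, with a lower one (0.00663%). At an unadjusted p under 0.05, 1500 genes passed (9.94%), 840 higher (5.57%) and 660 lower (4.37%). As an alternative, DESeq2 called 183 genes with a higher and 83 with a lower response in knockout mice. In the endothelial and barrier list 16 of 22 genes passed the unadjusted limit, none passed after adjustment, and the median interaction was -0.96 on the log2 scale. Cldn5 was at 26.1, 22.02 and 25.3 CPM in floxed sham mice and at 206, 119 and 88.4 CPM in floxed ICH mice, while the knockout groups overlapped. Its interaction was -2.41 (SE 0.36, adjusted p = 0.069). Pecam1 was at 269, 185 and 99.5 CPM in floxed ICH mice, above the 52.0 to 98.0 CPM of knockout ICH mice. In the floxed ICH mice, then, endothelial transcripts were higher than in the knockout ICH mice without overlap in both genes. S100a9 had the opposite order in 2 of the knockout mice, with 9.71, 2.87 and 1.75 CPM in floxed ICH mice against 50.8, 6.18 and 49.4 CPM in knockout ICH mice (interaction 3.69, SE 1.42, adjusted p = 0.42). The unadjusted limit was also passed by 10 of 20 disease-associated microglial genes (median interaction 1.77), 9 of 21 lysosomal genes (1.26), 7 of 14 cortical genes (1.76), 5 of 14 interneuron and cholinergic genes (-0.61) and 9 of 16 myelin genes (-0.82), and by no pan-neuronal, receptor, presynaptic or channel gene. The floxed sham mice differed from the knockout sham mice in choroid plexus transcripts, with Ttr at 783, 1484 and 2929 CPM against 14.2 to 19.0 CPM, and the part of tissue position in the interaction was not tested.

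**Figure D5:**
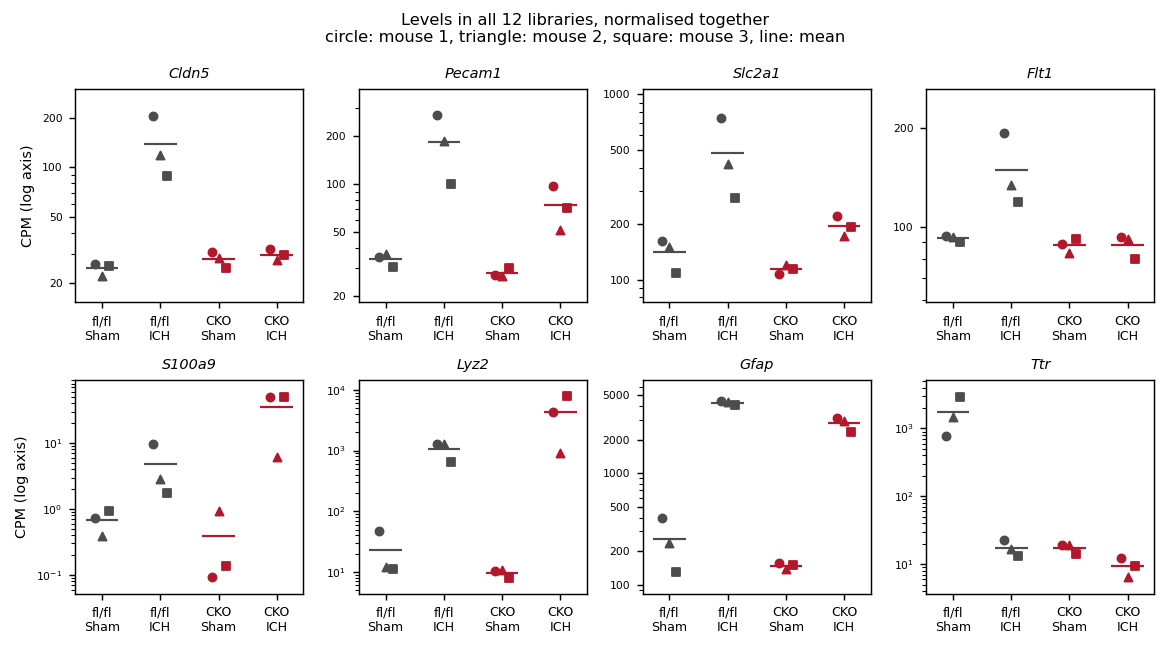
CPM on a log axis of 8 transcripts in all 12 libraries, normalised together, with floxed mice (fl/fl) in grey and knockout mice (CKO) in red; each symbol is a mouse and each line a group mean. Cldn5 stayed between 24.6 and 32.1 CPM in knockout mice and reached 88.4 to 206 CPM in floxed ICH mice, and Ttr reached 783 to 2929 CPM in floxed sham mice against at most 22.7 CPM in the other groups.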

How the data were processed

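Poly(A) mRNA of mouse brain tissue was sequenced in 12 libraries of 4 groups, 3 mice each. The deposited table holds estimated counts for 21956 genes. Per the submitters' processing notes, Bowtie2 2.2.8, HISAT2, StringTie 1.3.1 and DESeq2 were used by the authors, with no role stated; the genome build is not given in the sources used here. Columns of pathway annotation in the same table were used for pathway names. The expected counts, of which 7.36 to 8.69% were not whole in the knockout libraries, were rounded to whole numbers. Rows with no gene symbol (83) were kept in the fits and not named.

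Genes were kept by filterByExpr (minimum count 10, minimum total 15) and tested with edgeR 4.0.16 in R 4.3.3 by its quasi-likelihood test on the 6 knockout libraries after TMM normalisation, with Benjamini-Hochberg adjustment over all genes tested. The interaction was fitted on all 12 libraries. The SE is the fold change divided by the square root of F. A gene at 3 counts or fewer in every library of 1 group was given a lower bound, computed from that floor per library. Counting error only is covered by this floor. The scripts were tested on simulated data.

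Members and gene lists were chosen with earlier results of these data known. Genes were named by a rule: Fabp4, landmark genes of each list, the 10 genes per direction with the largest change and the 10 with the smallest p, up to 3 called members per list and direction, and interaction genes. List members that were not called, and other members named beside them, were chosen after their values were seen. A few genes are not reported here. Promoters came from RefSeq (GRCm38.p6). Alternatives were other normalisations and filters, DESeq2 1.42.0, all 12 libraries, a replicate block, and leaving out each library. The labels do not state whether mice of a group shared a litter, and the study's methods give male sex for the wild-type mice but state no sex for the knockout mice.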

Additional observations from a re-analysis of the deposited data

Results flagged for a closer look

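The response to ICH differed between knockout and floxed mice in 3 genes by edgeR's interaction test over all 12 libraries. For Folr1, a folate receptor of the choroid plexus, the interaction was 7.33 on the log2 scale (SE 0.88, adjusted p = 0.0278): floxed mice had 5.16, 9.42 and 19.0 CPM after sham and at most 0.0704 CPM after ICH, while knockout mice had 1.34, 1.299 and 1.52 CPM after sham and 0.776, 1.12 and 0.930 CPM after ICH. For Ttr, transthyretin, it was 5.73 (SE 0.63, adjusted p = 0.0278), with 22.7, 16.96 and 13.02 CPM in floxed ICH mice. For Tbx1 it was -3.66 (SE 0.45, adjusted p = 0.0278), with 0.771, 0.931 and 1.03 CPM in floxed sham mice and 11.1, 9.60 and 5.58 CPM in floxed ICH mice against 1.39 to 2.73 CPM in knockout mice. Folr1 and Ttr were high in the floxed sham mice alone, and the part of choroid plexus tissue in these libraries was not tested.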

How the results depend on the processing

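With all 6 knockout libraries 3605 genes were called higher and 1643 lower. Leaving out 1 library gave 594 to 5202 higher and 35 to 4897 lower. The lower calls were 3541 by DESeq2, 2558 with all 12 libraries in 1 fit and 789 with a fold of at least 2 required. Interaction calls were 2 higher and 1 lower; DESeq2 gave 183 and 83, and leaving out 1 library 0 to 260 and 0 to 111. The cause of these differences was not tested. Among 277 named genes tested, 214 were called, and no called one changed its sign under any alternative. Leaving out 1 library could hardly change a sign, because the groups did not overlap in nearly all called genes. With 3 mice per group, leaving out 1 sham library ended the call of 111 to 120 of them and leaving out ICH mouse 1 that of 66.

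A fit with a replicate block called 2577 genes higher and 1104 lower, and the interaction gave 1 and 0. It ended the call of 19 named genes and added 9. Same-numbered knockout mice did not deviate together (correlations 0.0047, -0.0014 and -0.0085). These values cannot decide whether the numbers pair the mice, because the large differences among the ICH mice could hide a shared factor. The labels do not state a pairing, and the mice were treated as unpaired in the main fit.

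Named genes that changed sign were none of them called. With library totals in place of TMM, the log2 fold change was -0.031 for Mfsd2a, -0.034 for Tfrc and -0.044 for mt-Co1. Over the fits that left out 1 library it ran from -0.14 to 0.038 for Ccne1, -0.17 to 0.070 for Foxj1, -0.058 to 0.29 for Gja1, -0.21 to 0.25 for Hspa1a, -0.23 to 0.067 for Mbp, -0.051 to 0.15 for Mfsd2a and -0.10 to 0.28 for Nqo1. It ran from -1.35 to 0.10 for Pvalb, -0.20 to 0.40 for Slc1a2, -0.062 to 0.16 for Tfrc, -0.31 to 0.0078 for Vegfa and -0.024 to 0.063 for mt-Co1.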

Other observations

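Bmal1, a core gene of the circadian clock, was at 43.3, 50.5 and 40.4 CPM after sham and at 16.3, 17.7 and 14.2 CPM after ICH in the knockout mice, a fall by 1.48 on the log2 scale (SE 0.15). All 3 ICH mice lay close together and below every sham mouse. The time of day of collection is not given in the sources used here, and its part was not tested.

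Scgb1a1, a secretory protein of airway epithelium, was at 0, 0 and 0.0459 CPM in knockout sham mice and at 18.8, 12.6 and 14.7 CPM in knockout ICH mice. In the floxed mice it was present after both operations, at 13.4, 10.96 and 3.31 CPM after sham and at 16.0, 4.93 and 0 CPM after ICH. Its interaction was 9.88 on the log2 scale (edgeR, adjusted p = 0.197).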
